A study of Mus musculus with 7 samples.

Results

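The central carbon metabolism genes described here encode the glucose transporter and hexokinases, the enzymes of glycolysis, the enzymes and carriers of lactate, and the enzymes of the pentose phosphate pathway, the pyruvate dehydrogenase complex and the TCA cycle. They were chosen by name from these pathways, with earlier results of these data known. Of the 41 genes listed, 38 had a probe set with exactly 1 gene symbol, and these 38 were among the 18193 genes so represented. Gpi1, Eno1 and G6pdx were not analysed here. Each gene was represented by the probe set with the highest mean log2 signal over the 7 arrays.

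The samples were macrophages sorted by GFP and F4/80 and measured on Affymetrix mouse arrays, with 4 preparations from GL261 tumours and 3 from normal brain. GL261 is a mouse glioma cell line, and its tumours had grown in the brain for 21 days in C57/Bl6 mice that carried transplanted GFP bone marrow. For normal brain the C57/Bl6 mice were 8 weeks old, and whether they too carried GFP marrow is not stated. The labels give no age for the GL261 mice. All brains were digested with an agent the labels call PAPIN. Differences between the groups cannot be told apart from any differences in mouse age, in marrow transplant or in which macrophages the GFP gate took. Nothing in the labels ties the arrays to separate mice, so p-values measure only the spread between these arrays.

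Glycolysis splits glucose into pyruvate in the cytosol. Pyruvate is then either reduced to lactate by lactate dehydrogenase and exported, or taken into mitochondria, where pyruvate dehydrogenase and the TCA cycle oxidise it. The pentose phosphate pathway branches off after hexokinase and yields NADPH and ribose. Activated macrophages are known for high rates of glycolysis and lactate release, and resting ones for greater reliance on mitochondrial oxidation.

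Values are MAS5 signals, linear intensities of probe sets that had been scaled between arrays before deposit. All 12 macrophage markers measured, F4/80 (Adgre1) and Csf1r among them, lay above background in both groups. For Gapdh, signal of the 3' control probe set over that of the 5' one, a sign of RNA integrity and labelling, was 1.75 ± 0.127 in GL261 (SD, n = 4) and 2.41 ± 0.0243 in normal brain (SD, n = 3). An exact two-sided permutation test gave p = 0.0286, which is the lowest value possible with 35 assignments of the 7 arrays. The same ratio for actin was 1.42 ± 0.0715 in GL261 (SD, n = 4) and 1.57 ± 0.116 in normal brain (SD, n = 3). For actin the groups overlapped (two-sided exact permutation p = 0.143). Markers of other cells and of division also differed between the groups, though the sums of some lists overlapped. Summed signals of 14 cell cycle genes were 14242 to 21688 in GL261 and 9745 to 10761 in normal brain, those of 11 oligodendrocyte precursor and glioma genes 2103 to 4879 and 437 to 809, and those of 12 endothelial genes 1035 to 3468 and 6196 to 8374 in the same order of groups. Neutrophil (8 genes), B cell (7) and microglia (9) sums were 16541 to 22952, 899 to 1517 and 18039 to 26798 in GL261, and 39749 to 51090, 4760 to 6575 and 36332 to 41224 in normal brain. Border macrophage (9), monocyte (6), pericyte and fibroblast (10) and erythroid (6) sums were 26686 to 31981, 17661 to 25647, 2894 to 4669 and 109 to 4507 in GL261, and 41878 to 47454, 15178 to 19206, 718 to 1898 and 9440.1 to 16106 in normal brain. The monocyte sums overlapped. Mean log2 values of the monocyte list did not, at 10.97 to 11.80 in GL261 and 10.10 to 10.51 in normal brain (two-sided exact permutation p = 0.0286). Of the 6 monocyte genes 3 were called higher (Chil3, F10 and Fn1) and 1 lower (Ccr2). Every gene of these 10 lists that was measured was above background on some array, except the erythroid Hba-a1. Sums of 11 T and NK cell genes overlapped too, at 11951 to 19697 in GL261 and 11094 to 12976 in normal brain. Their mean log2 values did not, at 9.24 to 10.04 and 8.93 to 9.11 (two-sided exact permutation p = 0.0571). Of these genes 4 were called higher (Cd8a, Gzma, Gzmb and Nkg7) and 1 lower (Klrd1). The part of all these marker lists in the results below, and that of the RNA measures, was not tested. In such sorted bulk RNA, fewer cells of a type and less RNA per cell cannot be told apart.

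In GL261 macrophages 5 genes of glycolysis and lactate and 1 of the TCA cycle were higher, and an enolase and a lactate carrier were lower. Pfkl, Tpi1, Pkm, Ldha, Slc16a3 and Idh3a rose and Eno2 and Slc16a1 fell at an adjusted p under 0.05, so that 6 of the 38 members (15.8%) rose and 2 (5.26%) fell. Over all 12125 genes tested, 5.92% were called higher and 4.20% lower, 10.1% in all. The median log2 fold change, GL261 minus normal brain, was 0.37 over the members and 0.04 over all genes tested. It was positive for 29 of the 38 members (76.3%) and for 52.9% of all genes. The groups did not overlap for 14 members (36.8%), against 23.4% of all genes. All 38 members passed the filter on low values and were above background on all 7 arrays. With quantile normalization 14 members were called higher, where 12.2% of all genes were called in either direction. When variances were not fitted to the signal 3 were called higher, where 3.75% of all genes were called in either direction.

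**Figure D1:**
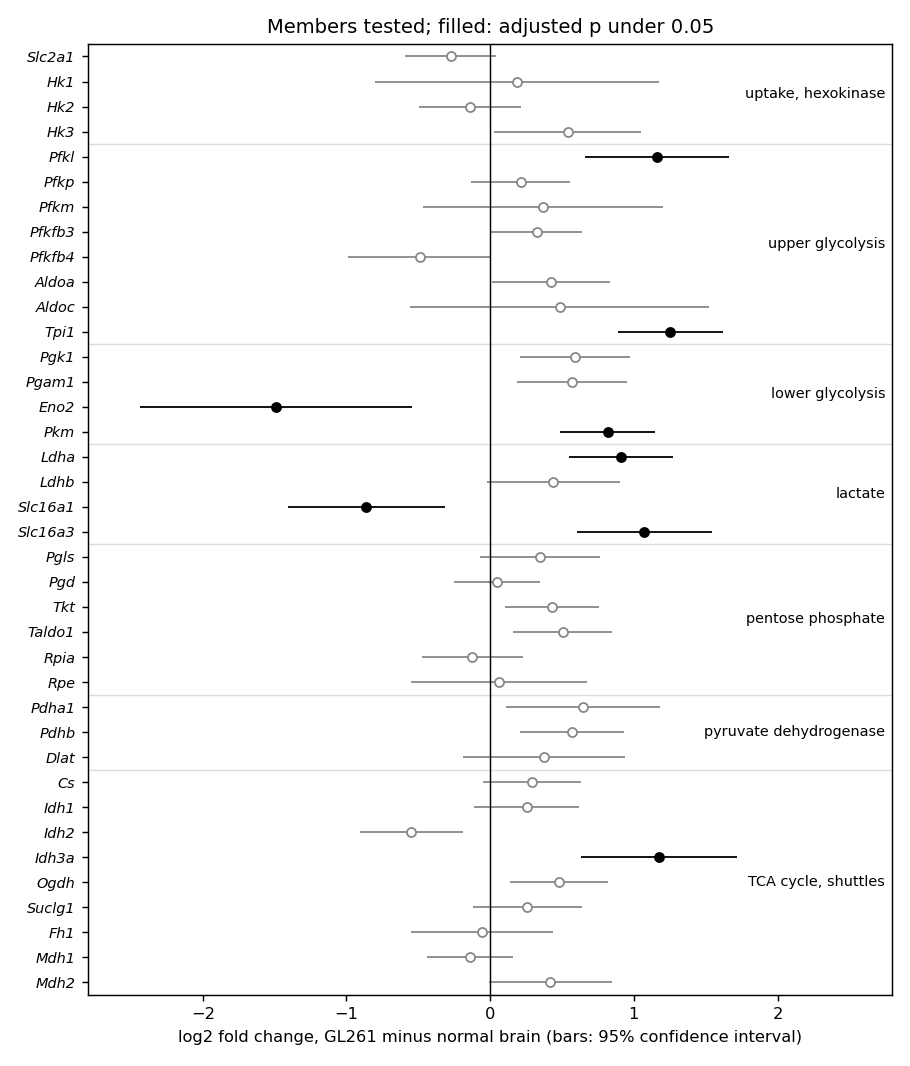
Log2 fold change of each of the 38 members, GL261 minus normal brain, on the horizontal axis, with 95% confidence intervals of the limma fit and filled symbols for an adjusted p under 0.05. The 6 filled symbols right of 0 are Pfkl, Tpi1, Pkm, Ldha, Slc16a3 and Idh3a, and the 2 left of 0 are Eno2 and Slc16a1.

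None of the 4 members for glucose uptake and phosphorylation was called. Slc2a1, the transporter GLUT1, had signals of 5414 to 7122 in GL261 and 6882 to 8375 in normal brain, which overlapped. Its log2 fold change was -0.28 (95% confidence interval -0.59 to 0.04, adjusted p = 0.253), and its other probe sets gave -0.23 and -0.15. Hexokinases trap glucose in the cell by phosphorylating it. Hk2, the inducible hexokinase, averaged log2 12.12 ± 0.22 in GL261 (SD, n = 4) and 12.26 ± 0.20 in normal brain (SD, n = 3), with an interval of -0.49 to 0.22. Hk3, the hexokinase of myeloid cells, averaged log2 10.36 ± 0.37 and 9.83 ± 0.23 in GL261 and normal brain (log2 fold change 0.54, adjusted p = 0.168). Its other probe set gave 0.13 (adjusted p = 0.786 with every probe set tested). Hk1 varied widely from array to array within both groups, at signals of 245 to 918 in GL261 and 269 to 685 in normal brain, and its sign changed when GL261 replicate 1 or normal brain replicate 2 was left out (-0.08 and -0.20, against 0.19 with all arrays).

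In upper glycolysis Pfkl and Tpi1 rose. Pfkl encodes the liver-type subunit of phosphofructokinase, the enzyme that commits sugar to glycolysis. Its signals were 1559, 1300.1, 1434 and 1181 in GL261 replicates 1 to 4, against 833, 531 and 503 in normal brain replicates 1 to 3. All GL261 arrays lay above all normal brain arrays, and the log2 fold change was 1.16 with an SE of 0.23 (adjusted p = 0.0103). The second Pfkl probe set gave 1.18, but the other was 203 to 457 in GL261 and 825 to 1062 in normal brain, a log2 fold change of -1.44 in the opposite direction (adjusted p = 0.0214 with every probe set tested). With the mean of its probe sets Pfkl had a log2 fold change of 0.30 (adjusted p = 0.421). The call thus holds for 2 of the 3 Pfkl probe sets and not for their mean.

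Tpi1 encodes triosephosphate isomerase, which interconverts the 3-carbon sugars made by aldolase. It had signals of 5160.3, 5025, 6360.45 and 6076 in GL261 and of 2754, 1873 and 2528 in normal brain. Every GL261 array was higher than any normal brain array, with a log2 difference of 1.26 (SE 0.17, adjusted p = 0.00136), a 2.39-fold difference. All 3 Tpi1 probe sets agreed, at 1.26, 1.27 and 1.31, and Tpi1 was called in all 18 alternative settings (adjusted p = 0.000311 to 0.028).

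The other members of upper glycolysis were not called. Of the other phosphofructokinase subunits, the platelet type Pfkp had a log2 fold change of 0.21 (adjusted p = 0.427) and the muscle type Pfkm one of 0.37 (adjusted p = 0.586). Pfkfb3 and Pfkfb4 make and break down fructose 2,6-bisphosphate, the activator of phosphofructokinase. Pfkfb3 had signals of 3028 to 3523 in GL261 and 2336 to 2977 in normal brain, which did not overlap (log2 fold change 0.32, adjusted p = 0.182). Pfkfb4 was at 689 to 891 in GL261 and 865 to 1418 in normal brain, which overlapped (log2 fold change -0.49, adjusted p = 0.2). The aldolase Aldoa had a log2 fold change of 0.43 (adjusted p = 0.178) in its analysed probe set, and 1 of its other probe sets was called, at 0.64 (adjusted p = 0.0492 with every probe set tested).

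Aldoc, the brain-type aldolase, differed between its probe sets. The analysed one ranged over 423 to 1418 in GL261 and 331 to 1325 in normal brain, with no call (adjusted p = 0.561). The other was at 264, 102, 211 and 181 in GL261 and at 3.94, 57.3 and 2.58 in normal brain, a log2 fold change of 3.40 (adjusted p = 0.0179 with every probe set tested). On normal brain arrays 1 and 3 that probe set was under the background level of 16.3 and 19.9 signal units. Summed signals of 7 other astrocyte markers were 977.3 to 2203 in GL261 and 1054 to 2543 in normal brain, which overlapped.

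In lower glycolysis Pkm rose and Eno2 fell. Pkm encodes the muscle-type pyruvate kinase, which makes pyruvate and ATP in the last step. Its signals were 8785, 7729, 10755 and 10721 in GL261 and 5355, 5358 and 5281 in normal brain. The normal brain values lay close together and all GL261 values above them, with a log2 difference of 0.82 (SE 0.15, adjusted p = 0.00768). The call was lost under median centring (adjusted p = 0.0996) and with variances that do not follow the signal (adjusted p = 0.0609), at log2 fold changes of 0.80 and 0.82. A single probe set covered the gene, and its splice forms were not measured separately.

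Pgk1 and Pgam1, phosphoglycerate kinase and mutase, were near the threshold. Pgk1 had signals of 7103, 6601, 9090.2 and 9435 in GL261 and of 4638, 6459.7 and 4919 in normal brain. These did not overlap, though GL261 replicate 2 and normal brain replicate 2 were close, and the log2 fold change of 0.59 was not called (SE 0.18, adjusted p = 0.0538). The other Pgk1 probe sets gave 0.64 and 0.87, and the first of these was called when every probe set was tested (adjusted p = 0.038). Pgam1 had a log2 fold change of 0.57 (adjusted p = 0.0593), with groups that overlapped.

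Eno2, the enolase best known from neurons, ran the other way. It was at 199, 439, 613 and 789 in GL261, against 1154, 895 and 2069.5 in normal brain. No GL261 array reached the lowest normal brain array, and GL261 replicate 1 was the lowest. Eno2 differed by -1.49 on the log2 scale and was only just called (SE 0.43, adjusted p = 0.0497). The call was lost in 13 of 18 alternative settings, with adjusted p-values up to 0.156, the highest without normal brain replicate 3. The summed signals of 7 other neuronal markers were 142.6, 335, 1043 and 572.9 in GL261 and 287.2, 434.2 and 398.3 in normal brain, which overlapped. Of the 7, Tubb3 was called higher, at a log2 difference of 2.74 (adjusted p = 0.0271). In normal brain it exceeded background on 1 of 3 arrays. Stmn2, also among the 7, did not pass the filter and was not tested. Its signals ran in the direction of Eno2, at 5.10, 16.8, 4.50 and 1.58 in GL261 and 36.0, 135 and 46.7 in normal brain. Stmn2 exceeded background on 1 of 4 GL261 arrays and 3 of 3 normal brain arrays. Whether neuronal RNA had a part in the Eno2 difference was not tested.

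The lactate step held 3 of the 8 calls among its 4 tested members, where 10.1% of all genes tested were called. Ldha encodes the subunit of lactate dehydrogenase that predominates in glycolytic tissue. It had signals of 7044, 6557, 9825 and 9242 in GL261 and of 4021, 4569 and 4258 in normal brain. The groups were well apart, with a log2 difference of 0.91 (SE 0.17, adjusted p = 0.00727), a 1.88-fold difference. The call was kept without any single array and was lost under median centring (adjusted p = 0.0717) and with variances that do not follow the signal (adjusted p = 0.0601). Ldhb, the subunit that predominates in heart, had a log2 fold change of 0.44 in its analysed probe set (95% confidence interval -0.03 to 0.90, adjusted p = 0.216), and its other 3 probe sets gave 0.33 to 0.46.

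The monocarboxylate carriers moved in opposite directions. Slc16a3 encodes MCT4, the low-affinity carrier that exports lactate from glycolytic cells. Its signals were 1265, 1965, 1305 and 1261 in GL261 and 643, 724 and 655 in normal brain. All GL261 arrays lay above normal brain, with replicate 2 highest, and the log2 fold change was 1.07 (SE 0.21, adjusted p = 0.0108). Slc16a3 was called in all 18 alternative settings (adjusted p up to 0.0449).

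Slc16a1 encodes MCT1, a carrier of higher affinity that moves lactate in both directions. It was at 742, 1438, 754 and 893 in GL261 and at 1375, 1815 and 1891 in normal brain. The groups overlapped through GL261 replicate 2 alone, which lay above normal brain replicate 1. The log2 fold change was -0.86 (SE 0.25, adjusted p = 0.0492), and the call was lost in 13 of 18 settings. MCT1 is also a carrier of brain endothelium. The summed endothelial signal was 1035, 3468, 1120 and 1204 in GL261 replicates 1 to 4 and 7143, 8374 and 6196 in normal brain replicates 1 to 3, so the GL261 array with the highest Slc16a1 had the highest endothelial sum of that group, while the normal brain array with the highest Slc16a1, replicate 3, had the lowest of its group. Whether endothelial RNA had a part in the Slc16a1 difference was not tested.

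**Figure D2:**
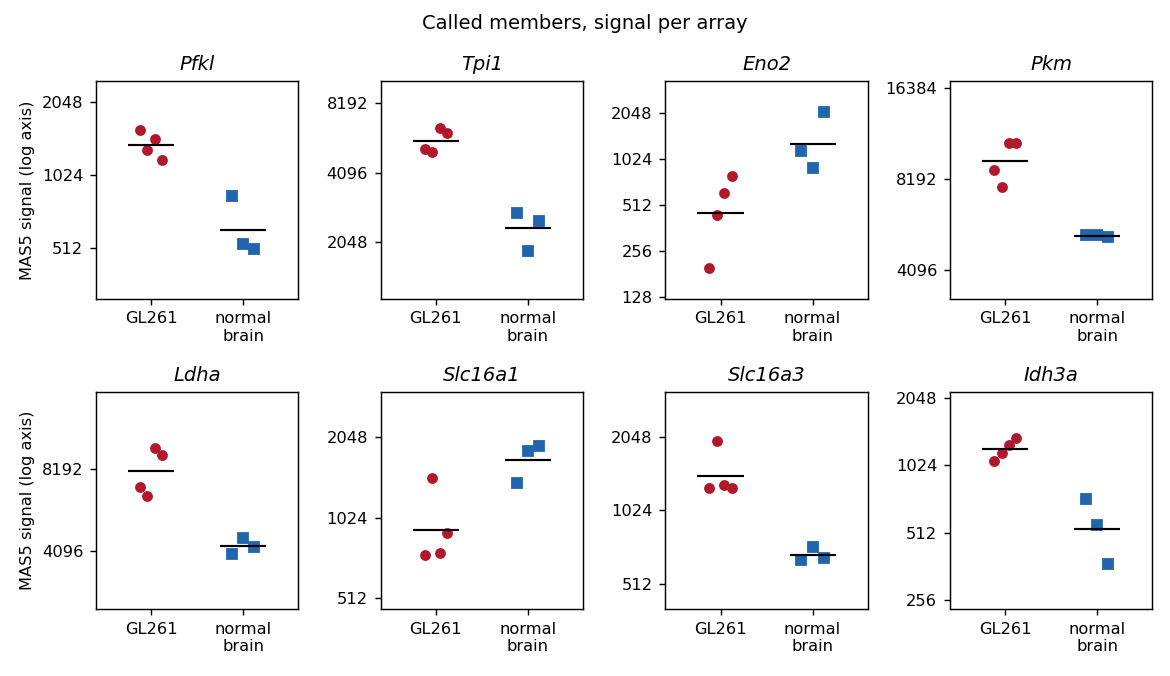
MAS5 signal per array (log axis) of the 8 called members, with GL261 as circles (n = 4), normal brain as squares (n = 3) and the geometric mean as a line. Slc16a1 is the 1 gene of the 8 whose groups overlap, through GL261 replicate 2 at 1438.

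The called lactate genes all had matches to ACGTG, which holds the core of the hypoxia response element, in a RefSeq promoter window on GRCm38.p6, which runs from 250 bases before the start to 50 after it. They are shown because LDHA and MCT4 are textbook targets of the hypoxia-inducible factor in human cells, together with Tpi1, which rose most among the members and whose window holds no match. Only the 250 bases before the start are printed. Capitals mark ACGTG and its reverse complement CACGT, and where both overlap they form the E-box CACGTG. The windows are those of Ldha at chr7:46845554-46845803 (+), Slc16a3 at chr11:120948817-120949066 (+), Slc16a1 at chr3:104638414-104638663 (+) and Tpi1 at chr6:124814159-124814408 (-).
Ldha: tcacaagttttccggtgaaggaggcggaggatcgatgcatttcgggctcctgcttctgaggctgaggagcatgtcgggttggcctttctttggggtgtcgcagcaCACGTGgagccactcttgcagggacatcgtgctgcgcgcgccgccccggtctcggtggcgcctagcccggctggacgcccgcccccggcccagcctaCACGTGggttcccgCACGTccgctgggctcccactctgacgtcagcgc
Slc16a3: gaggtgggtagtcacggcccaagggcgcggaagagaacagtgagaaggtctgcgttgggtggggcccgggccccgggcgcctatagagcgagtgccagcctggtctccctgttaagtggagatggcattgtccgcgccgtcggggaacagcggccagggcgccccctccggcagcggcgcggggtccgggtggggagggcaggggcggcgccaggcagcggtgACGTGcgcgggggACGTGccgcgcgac
Slc16a1: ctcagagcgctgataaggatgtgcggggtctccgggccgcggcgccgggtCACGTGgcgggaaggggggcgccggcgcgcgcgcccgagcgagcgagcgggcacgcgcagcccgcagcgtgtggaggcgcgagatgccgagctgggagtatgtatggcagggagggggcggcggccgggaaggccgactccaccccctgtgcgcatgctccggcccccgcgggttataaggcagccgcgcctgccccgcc
Tpi1: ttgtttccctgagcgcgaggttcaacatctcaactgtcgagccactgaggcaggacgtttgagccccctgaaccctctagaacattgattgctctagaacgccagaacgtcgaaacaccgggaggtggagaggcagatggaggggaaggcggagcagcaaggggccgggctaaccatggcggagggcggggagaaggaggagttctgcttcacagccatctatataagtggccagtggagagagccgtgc

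Counting both strands, the printed Ldha stretch holds 5 matches, in 2 E-boxes and 1 single site. Slc16a3 has 2 matches outside an E-box and Slc16a1 has 2 that form 1 E-box, with 1 more in the 50 bases after its start. A second Ldha window further into the gene has 0. Of the 37 tested members with a window, 17 (45.9%) held a match in some window of 300 bases, against 29.2% of the 9831 tested genes with a window and 21.8% of all 27025 genes with one. Among called members a match was found in 3 of the 5 with a window that rose (Pkm, Ldha and Slc16a3) and in 1 of the 2 that fell (Slc16a1). Of the 30 members that were not called 13 had one (43.3%). CACGTG, searched separately, was in 5 of the 37 (13.5%) and in 11.6% of the tested genes. These are matches of letters and not evidence of binding.

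Isozymes of a step were set against each other, and no pair passed the test after adjustment. For 12 pairs with both genes tested, the log2 ratio of the first to the second was compared between groups by a two-sided exact permutation test, which shows unequal change and not the level of either gene. For Slc16a3 over Slc16a1 the log2 ratio was 0.62 ± 0.18 in GL261 (SD, n = 4) and -1.31 ± 0.22 in normal brain (SD, n = 3), a difference of 1.93. For Pfkp over Pfkl the difference was -0.95, for Pfkfb3 over Pfkfb4 0.81, for Idh1 over Idh2 0.80, for Hk3 over Hk2 0.68 and for Mdh1 over Mdh2 -0.56. Each of these 6 reached exact permutation p = 0.0286, the lowest possible here, and 0.0571 after Benjamini-Hochberg adjustment over the 12 pairs, so none passed 0.05. Pfkl over Pfkm was also free of overlap (difference 0.79, exact p = 0.0571). For Ldha over Ldhb the difference was 0.47 (exact p = 0.0857), with GL261 replicate 1 among the normal brain arrays. When the mean of all probe sets stood for each gene, groups stayed apart for 2 pairs, Slc16a3 over Slc16a1 (2.02) and Hk3 over Hk2 (0.47).

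**Figure D3:**
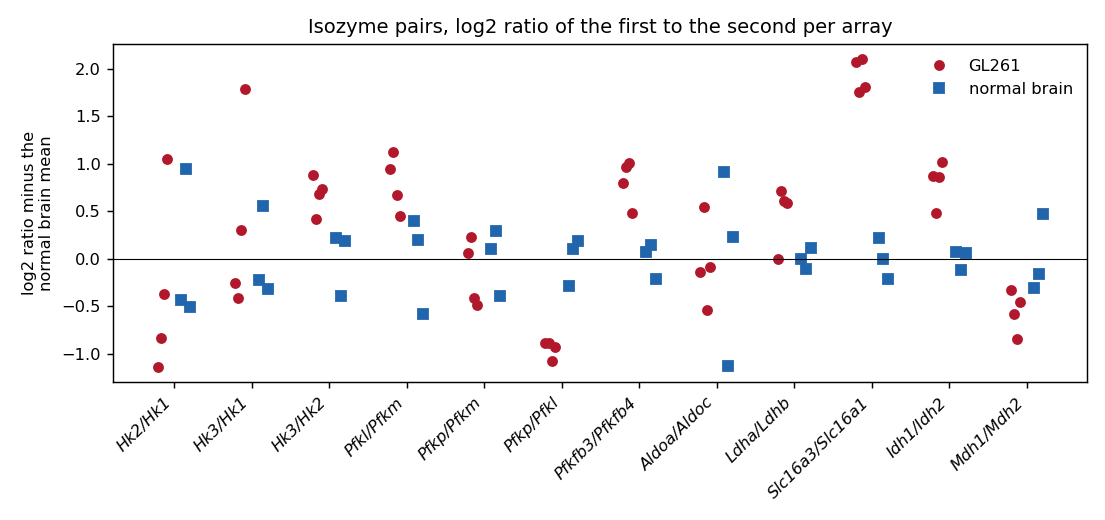
Log2 ratio of the first to the second isozyme in each array, set to 0 at the normal brain mean, for the 12 pairs tested, with GL261 as circles and normal brain as squares. Slc16a3 over Slc16a1 shows the widest gap (difference 1.93), and groups overlap for 5 pairs, among them Hk2 over Hk1 and Aldoa over Aldoc.

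No pentose phosphate member was called. Tkt and Taldo1, transketolase and transaldolase, link the pathway back to glycolysis. They had log2 fold changes of 0.43 (adjusted p = 0.0886) and 0.50 (adjusted p = 0.0655), both with GL261 above normal brain on all arrays. A second Tkt probe set was called, at 0.89 (adjusted p = 0.00752 with every probe set tested). The oxidative enzymes Pgls and Pgd had 0.35 and 0.05, and the pentose isomerase Rpia and epimerase Rpe had -0.12 and 0.06. Pgd had a 95% confidence interval of -0.25 to 0.35 in its analysed probe set. Its other probe sets gave 0.03, 0.14 and 0.48, the last with an adjusted p of 0.0855 with every probe set tested.

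The pyruvate dehydrogenase complex, the gate from glycolysis to the mitochondrial cycle, had positive values in all 3 subunit genes and no call. Pdha1, its E1 alpha subunit, was at 2346, 2622, 2378 and 2902 in GL261 and at 1744, 1026 and 2421 in normal brain. Normal brain replicate 3 lay among the GL261 arrays, and the log2 fold change of 0.65 was not called (SE 0.24, adjusted p = 0.117); without that replicate it was 0.93 (adjusted p = 0.0299), and without normal brain replicate 2 it was 0.31 (adjusted p = 0.342). Pdhb, the E1 beta subunit, had signals of 2509 to 3180 in GL261 and 1591 to 2178 in normal brain, without overlap (log2 fold change 0.57, adjusted p = 0.0505). Dlat, the E2 subunit, had a log2 fold change of 0.38 (adjusted p = 0.388).

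In the TCA cycle Idh3a alone was called. It encodes the catalytic subunit of the NAD-dependent isocitrate dehydrogenase. Its signals were 1065, 1158, 1260.4 and 1359 in GL261 and 721, 553 and 374 in normal brain. All GL261 arrays were higher, with a log2 difference of 1.18 (SE 0.25, adjusted p = 0.0142). Of the other Idh3a probe sets, 2 gave 0.52 and 0.43 without a call and with overlapping groups, and with the mean of its probe sets the gene was at 0.56 (adjusted p = 0.307). Without GL261 replicate 3 the adjusted p was 0.052.

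Idh2, the mitochondrial NADP-dependent enzyme, gave opposite readings. The analysed probe set was at 1408 to 1681 in GL261 and 1940 to 2561 in normal brain (log2 fold change -0.55, adjusted p = 0.0547). The other was at 1521 to 1846 in GL261 and 757 to 1450 in normal brain (log2 fold change 0.67, adjusted p = 0.0994 with every probe set tested). Neither probe set overlapped between groups, so no direction can be given for Idh2. Idh1, its cytosolic counterpart, was at 0.26 (adjusted p = 0.366), with 0.25 in its other probe set.

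The remaining TCA and shuttle members were not called. Ogdh, a subunit of the 2-oxoglutarate dehydrogenase complex, had signals of 1701 to 1966 in GL261 and 1213 to 1362 in normal brain, without overlap (log2 fold change 0.48, adjusted p = 0.0718). Citrate synthase (Cs) was at 0.29, Suclg1 of succinyl-CoA ligase at 0.26, fumarase (Fh1) at -0.06, and the cytosolic and mitochondrial malate dehydrogenases Mdh1 and Mdh2 at -0.14 and 0.42. Adjusted p-values of these 5 were 0.202 to 0.907. Over the 12 pyruvate dehydrogenase and TCA members the median log2 fold change was 0.33 with 1 call, and over the 20 glycolysis, uptake and lactate members it was 0.43 with 7 calls. Over all genes tested the median was 0.04, and 10.1% were called. Whether the groups of members differ was not tested.

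Probe sets bore on several of these results. Of the 38 members, 24 had more than 1 tested probe set, and in 7 of them (Aldoa, Dlat, Idh2, Mdh1, Pfkfb3, Pfkl and Rpe) some probe set had the opposite sign to the analysed one. Among the called members Pfkl, Tpi1 and Idh3a had several tested probe sets, and Pkm, Ldha, Slc16a1, Slc16a3 and Eno2 rested on 1 tested probe set each. Probe sets of a gene can lie at different distances from its 3' end. The Gapdh ratio given above differed between the groups, while the actin ratio overlapped. Whether this bears on the disagreements was not tested.

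**Figure D4:**
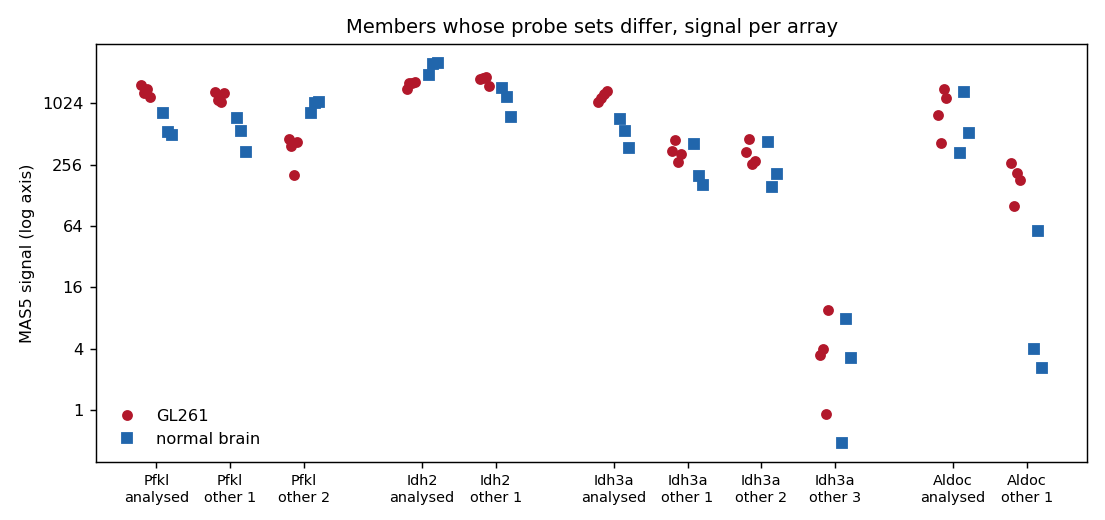
MAS5 signal per array (log axis) of every probe set with 1 gene symbol for Pfkl, Idh2, Idh3a and Aldoc, with GL261 as circles and normal brain as squares. The Pfkl probe set of opposite direction (203 to 457 in GL261, 825 to 1062 in normal brain) stands against the other Pfkl probe sets, and the 2 Idh2 probe sets run in opposite directions.

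Other genes of central metabolism were called at near the background share. Of 103 further genes, 94 had a probe set, 81 passed the filter and 10 were called, against 10.1% of all genes. Of these, 8 rose and 2 fell, with a median log2 fold change of 0.15. Around pyruvate entry, the kinases Pdk1 and Pdk3, which inhibit pyruvate dehydrogenase, rose by 1.10 (adjusted p = 0.026) and 1.42 (adjusted p = 0.026) on the log2 scale. Mpc1, a subunit of the mitochondrial pyruvate carrier, rose by 0.72 (adjusted p = 0.0221). The calls of Pdk1, Pdk3 and Mpc1 were lost in 5, 6 and 6 of 18 settings, with adjusted p-values up to 0.156, 0.0829 and 0.0874, and leaving out GL261 replicate 3 or normal brain replicate 2 ended all 3 calls. Pdk1 had signals of 2352, 1837, 2354 and 1499 in GL261 and of 1219, 572 and 1116 in normal brain, with no overlap. These were 3 of the 14 tested genes of pyruvate fate, of which 0 were called lower. The log2 fold change was positive for 9 of the 14 and negative for 5.

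Near glycolysis, the glucose transporter Slc2a3 (GLUT3) fell and the bisphosphatase Tigar rose. Slc2a3 was at 778, 974, 940 and 485 in GL261 and at 1786, 1715 and 2510.3 in normal brain. All GL261 arrays were lower, with a log2 fold change of -1.36 (adjusted p = 0.00904). With the mean of its probe sets Slc2a3 was at -0.63 and not called (adjusted p = 0.271), and with variances that do not follow the signal the adjusted p was 0.054. Tigar, which lowers fructose 2,6-bisphosphate, rose by 1.78 (adjusted p = 0.0375), a call lost in 8 of 18 settings. H6pd, the hexose-6-phosphate dehydrogenase of the endoplasmic reticulum, rose by 1.32 (adjusted p = 0.0112) and was called in all 18 settings. For Gapdh itself the middle control probe set was at 7805 to 12046 in GL261 and 6342 to 8025 in normal brain, which overlapped (two-sided exact permutation p = 0.143). The 3' one overlapped too, at 9740.3 to 15410.3 in GL261 and 9914 to 12088 in normal brain (exact p = 0.429). The 5' one did not, at 5949.9 to 8474 in GL261 and 4074 to 5047 in normal brain (exact p = 0.0571).

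Among the other TCA genes, the succinate dehydrogenase subunit Sdhb rose by 0.82 (adjusted p = 0.0142). Sdha and Sdhd, subunits of the same complex, were at -0.14 and 0.03, and Sdhc was at 0.57 (adjusted p = 0.0579). Acod1, which turns the TCA intermediate cis-aconitate into itaconate in activated macrophages, was at 2318, 2315, 3259 and 2810 in GL261 and at 1615, 1018 and 1596 in normal brain. Every GL261 array was above normal brain, with a log2 fold change of 0.94 (adjusted p = 0.016). The calls of Sdhb and Acod1 were lost in 3 and 2 of 18 settings, both of them without GL261 replicate 3 (adjusted p = 0.0523 and 0.0564).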

How the data were processed

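Macrophages from GL261 tumours (4 arrays) and normal brain (3 arrays) were measured on Affymetrix arrays with biotin-labelled cRNA, per the labels' protocols. The authors deposited linear intensities, made with MAS5 per the submitters' processing notes (version not given in the sources used here). With the lowest and highest 2% left out, array means were 500.002 to 500.003, so no scaling was added. Of 45101 probe sets, 34945 had 1 gene symbol in the platform annotation, which gave 18193 genes.

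Tests used log2(signal + 6), with the 20th percentile of the values as pseudocount, which understates fold changes of low genes. Genes with a mean log2 value above 4.93, the 40th percentile over probe sets, were tested. limma 3.58.1 in R 4.3.3 compared GL261 with normal brain over all 12125 genes, with variances that follow the signal, two-sided tests and Benjamini-Hochberg adjustment, and a gene was called if its adjusted p was under 0.05. All adjusted p-values are from limma unless they are said to be over pairs. Those given "with every probe set tested" come from the fit of every probe set by itself. Background was the 95th percentile of Bacillus control probe sets on each array. Single measures and isozyme ratios were compared by exact permutation tests. Promoter windows and symbols were taken from RefSeq (GRCm38.p6). The fit was tested on simulated data. Figures were drawn with matplotlib 3.10.9 in Python 3.11.15.

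The members and gene lists were chosen with earlier results of these data known. Given with values in every array were called members and uncalled ones with an absolute log2 fold change of at least 0.58, and other pathway genes were named where called. The alternatives were other pseudocounts (1 and 58), filters, normalizations, variance models, array weights, probe set rules, the replicate number as a block, and leaving out each array. Same-numbered arrays correlated by 0.0792, -0.00754 and 0.031 in their deviations from the group means, so the numbers were not taken as pairs. The number of arrays limits the precision.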

Additional observations from a re-analysis of the deposited data

Results flagged for a closer look

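A GL261 array stood apart from the other GL261 arrays for 2 of the 38 members tested, by Dixon's criterion for 4 values, which chance meets in about 1 of 20 groups. Slc16a3, the lactate exporter, was at log2 10.94 in GL261 replicate 2 and at 10.31 to 10.36 in the other 3. The same array had the highest Slc16a1 signal and the highest endothelial, cell cycle and oligodendrocyte precursor sums of the GL261 arrays, and without it Slc16a3 was still called higher, by 0.92 on the log2 scale. Rpe, the pentose epimerase, was at log2 10.25 in GL261 replicate 3 and at 10.51 to 10.56 in the others, and was not called.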

How the results depend on the processing

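Over 18 alternatives the median log2 fold change of the members stayed between 0.29 and 0.44, and Tpi1 and Slc16a3 were called in each. Members called higher numbered 14 with quantile normalization (12.2% of all genes called in either direction) and 10 with every probe set by itself (6.51% of probe sets called in either direction). A member counted among the 10 if any of its probe sets was called higher, and 24 members had more than 1 tested probe set. That count and the share of single probe sets are thus not alike. Of those 10, Aldoa, Aldoc, Pgk1 and Tkt entered through other probe sets. The number called higher was 3 with variances that do not follow the signal (3.75% of all genes called in either direction) and 5 to 8 without 1 array. Members called lower numbered 0 with a pseudocount of 1, no filter, median centring, those variances, array quality weights or the mean of probe sets, 1 with every probe set by itself (Pfkl, also counted as higher), 3 with the median pseudocount or the stricter filter (Eno2, Idh2 and Slc16a1), 2 with quantile normalization (Idh2 and Slc16a1), and 0 to 2 without 1 array. With the replicate number as a block, 5 members were called higher and 1 lower, Idh3a (adjusted p = 0.0537) and Slc16a1 lost their calls, and 1004 of all genes were called against 1227; the labels give no pairing beyond the number. Other pathway genes called numbered 3 with variances that do not follow the signal and 4 to 9 without 1 array, against 10. Pairs without overlap numbered 2 with the mean of probe sets and 7 to 8 without 1 array. Over all genes 542 were called without GL261 replicate 3 and 455 with variances that do not follow the signal. Signs turned for Fh1 under the replicate block (0.14), without GL261 replicate 4 (0.14) and without normal brain replicate 1 (0.08), for Pfkfb3 (-0.19), Idh2 (0.061) and Pgm1 (-0.38) with the mean of probe sets, for Hk1 without GL261 replicate 1 (-0.08) or normal brain replicate 2 (-0.20), for Pgd without GL261 replicate 3 (-0.0032), and for Rpe without normal brain replicate 1 (-0.11) or 2 (-0.19). None of these values was called. Without 1 array the ranges were -0.17 to 0.14 for Fh1, -0.20 to 0.55 for Hk1, -0.0032 to 0.10 for Pgd and -0.19 to 0.48 for Rpe. The cause of the changes was not tested.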

Other observations

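Glutamine, glycogen and regulatory genes were measured on the same arrays. All 6 tested genes of glutamine uptake and use had negative log2 fold changes and none was called by limma. At an unadjusted p under 0.05 there was 1, the glutamine transporter Slc38a2 (-0.44, adjusted p = 0.0895). Glul, glutamine synthetase, was at 5909 to 10335 in GL261 and 8115 to 10626 in normal brain, which overlapped. Where 10.1% of all genes tested were called, 1 of 10 tested glycogen and gluconeogenesis genes was, as higher. This was Pgm1, a phosphoglucomutase, at 1249, 1278, 1303 and 1105 in GL261 and 542, 642 and 450.1 in normal brain (log2 fold change 1.18, adjusted p = 0.00643). The call holds for its analysed probe set, since the mean of its probe sets gave -0.38 (adjusted p = 0.576).

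Of 13 tested regulators 1 was called, as lower, where 10.1% of all genes tested were called. Hif1a, the hypoxia-inducible factor subunit found in most cells, was at 5484 to 7268 in GL261 and 4959 to 6508 in normal brain (log2 fold change 0.15, adjusted p = 0.579). Epas1, the HIF-2 alpha subunit, which is abundant in endothelium, was at 183, 741, 458 and 208 in GL261 and 1575, 929 and 2156 in normal brain (log2 fold change -2.10, adjusted p = 0.017). The call was lost in 3 of 18 settings, among them the mean of its probe sets (-1.15), with adjusted p-values up to 0.0758. Summed endothelial signals were 1035, 3468, 1120 and 1204 in GL261 and 7143, 8374 and 6196 in normal brain, so the array with the highest Epas1 had the highest endothelial sum within GL261 and the lowest within normal brain. The part of endothelial RNA in the Epas1 difference was not tested.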
